A study of Homo sapiens with 6 samples.

Results

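MIB2, HES4 and 7 further genes of the Notch pathway (MIB1, HES1, HEY1, JAG1, NOTCH1, NOTCH2 and NOTCH3) were examined in RNA-Seq libraries of U2OS cells, 9 genes of the 67140 in the deposited gene list. They were chosen with results of these libraries already known. MIB2 was selected on its higher counts in etoposide-treated than in control cells, HES4 because it is a Notch target listed in all 6 libraries, and the other 7 because they are Notch pathway genes with counts in the etoposide libraries. U2OS is an established human osteosarcoma line, here of wild-type genotype. It was left untreated (control), treated for 4 h with 1.5 μg/ml adriamycin (doxorubicin), or treated for 4 h with 100 μM etoposide, with 2 libraries per group. Both drugs poison topoisomerase II, and etoposide served as a comparison for the action of adriamycin on chromatin. The labels do not say whether the 2 libraries of a group came from separate cultures, so p-values measure only the spread between these libraries, which may be technical. In bulk RNA, fewer cells of a type and less RNA per cell cannot be told apart.

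Notch signalling passes between touching cells. A ligand of the Delta or Jagged family on one cell is ubiquitinated by a Mind bomb or Neuralized ligase and pulled into that cell, which exposes the Notch receptor on the neighbouring cell to cutting by an ADAM protease and then by γ-secretase. The freed receptor fragment enters the nucleus, binds the DNA-bound protein RBPJ together with a Mastermind coactivator, and turns on genes of the HES and HEY families, which encode transcriptional repressors. Without the fragment, RBPJ recruits corepressors to the same genes.

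RBPJ binds the letters GTGGGAA. HES1, HES4 and HES5, of the HES family, are among the Notch pathway genes with these letters near their start. The stretches below are shown because the 3 genes carry the match at nearly the same place although their transcript levels were far apart. They are from RefSeq (GRCh38.p14), each 30 bases long, read 5′ to 3′ on the strand of the gene, with the match in capitals.
HES1, plus strand, chr3:194136052-194136081: tgaaagttactGTGGGAAagaaagtttggg
HES4, minus strand, chr1:1000156-1000185: ctggggcgagtGTGGGAAagaatgcggagc
HES5, minus strand, chr1:2530326-2530355: ggccgcggagtGTGGGAAcggccgcggcgc

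The match begins 85 bases before the RefSeq start of HES1, 77 bases before that of HES4 and 81 bases before that of HES5. A search of both strands, from 250 bases before to 50 bases after each RefSeq start, found the letters in 6.25% of all 35116 windows. Of the 68 genes in a list of the Notch pathway sorted by role, 58 had a window and 8 held the letters: HES1, HES4, HES5, HEY2, HEYL, RBPJ, SPEN and CTBP2. A list gene was counted if any of its windows held the letters. The list count is thus by gene and the 6.25% by window, and they are not directly comparable. HES5, HEY2 and RBPJ each held them on both strands. A match is a string of letters and not a measured binding site.

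The window of MIB2 held no GTGGGAA. The part of it that lies before the first annotated base of MIB2 is shown because MIB2 is the only member that could be compared between the groups. It was selected on its difference with etoposide. Capitals mark its only match to CACGCG, which HES and HEY proteins can bind. The match is on the opposite strand, so the printed letters are its reverse complement.
MIB2, plus strand, chr1:1615250-1615453: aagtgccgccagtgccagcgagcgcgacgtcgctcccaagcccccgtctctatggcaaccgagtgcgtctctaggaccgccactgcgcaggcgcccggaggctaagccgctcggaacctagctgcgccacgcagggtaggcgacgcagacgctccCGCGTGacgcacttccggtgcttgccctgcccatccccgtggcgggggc

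The letters CACGCG occurred in 11.4% of all windows. Counted by gene, as above, 18 of the 58 list genes held them, HES1 and JAG1 among them.

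The etoposide libraries gave the whole gene list, with 21450766 and 14244235 counts. Of the control and adriamycin libraries, only the opening 220 to 292 genes were analysed here. Comparisons between groups therefore rest on 220 genes of chromosome 1 between bases 12010 and 4594016, over which the libraries held 59357 to 92794 counts. AGRN alone took 21.1% to 29.0% of these. MIB2 and HES4 are the 2 members among them, and HES5 is the only further gene of the Notch list. Of the 220 genes, 94 passed the filter on low counts and were tested. MIB2 was the only member, and the only list gene, that passed it. The labels call U2OS epithelial. In the etoposide libraries the epithelial keratins KRT8 and KRT18 reached 893 and 222 CPM (counts scaled to library size) and EPCAM 12.8 CPM. KRT19, however, had 1 and 0 counts and CDH1 was at 1.40 CPM. The mesenchymal and bone genes COL1A1, SPARC, VIM, FN1 and CDH2 stood at 3544, 1133, 821, 563 and 131 CPM. RUNX2 was at 4.78 CPM, COL1A2 had 5 and 2 counts, and BGLAP, the osteocalcin gene, had 8 and 2 counts. Markers of blood cells were close to absent, with 6 counts of PTPRC in each library and 0 of HBB.

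MIB2 (ENSG00000197530) encodes Mind bomb 2, a ubiquitin ligase for Notch ligands, and spans bases 1615454 to 1630605 of chromosome 1 (GRCh38, plus strand). Untreated cells gave 316 and 185 counts of MIB2, etoposide-treated cells 781 and 458, and adriamycin-treated cells 318 and 249. After scaling by edgeR's TMM method (trimmed mean of M values), these were 256 and 212 normalized counts in control cells, 529 and 482 with etoposide, and 344 and 348 with adriamycin. Both adriamycin libraries lay above the control libraries and below the etoposide libraries. MIB2 was selected on the gap between etoposide and control. How many of the other genes separate in this way with 2 libraries per group was not counted, so nothing is read from it. The means were 234 ± 31.0 in control cells, 505 ± 33.1 with etoposide and 346 ± 2.76 with adriamycin (SD, n = 2 in each group).

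**Figure D1:**
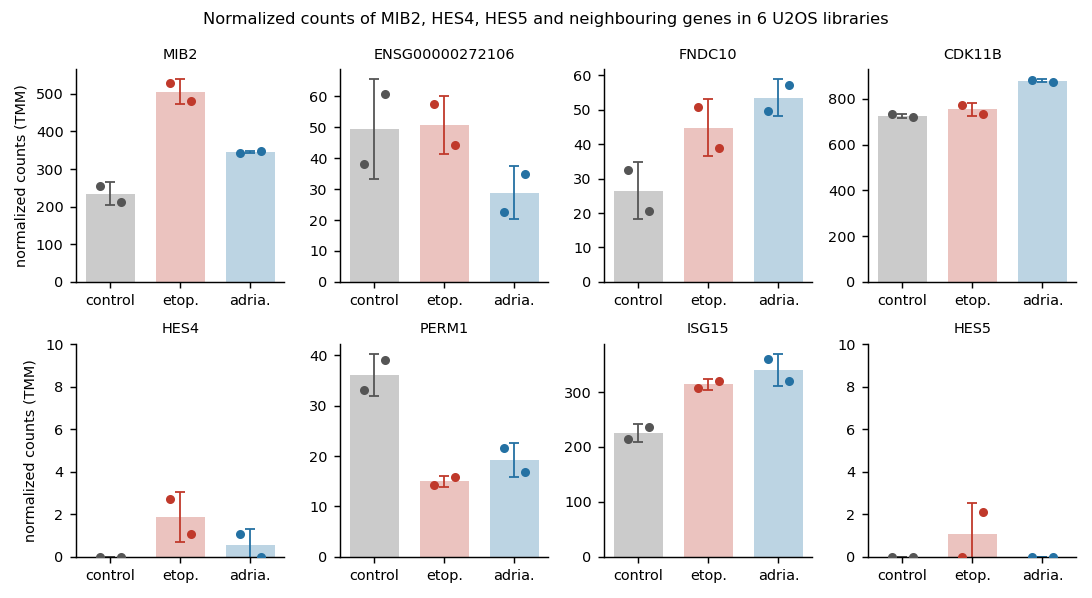
Normalized counts (TMM, vertical axis from 0) of MIB2, HES4, HES5 and the genes beside MIB2 and HES4 in each of the 6 libraries. Points are libraries, bars are group means and error bars are the SD of 2 libraries, cut at 0. MIB2 is highest in the etoposide libraries and intermediate in the adriamycin libraries, whereas HES4 and HES5 stay under 3 normalized counts throughout.

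The fitted log2 fold change of MIB2 was 1.10 (standard error 0.12) for etoposide against control. For adriamycin against control it was 0.55 (standard error 0.13), and for adriamycin against etoposide −0.55 (standard error 0.12). These values are a description and carry no p, since MIB2 was chosen on the first of them and the other comparisons share its libraries. By the thresholds of the study (adjusted p below 0.01, log2 fold change beyond 1), MIB2 counts as higher with etoposide, but this call is what it was selected on and is no result of a test. Of all 94 genes tested, 2.13% were called higher with etoposide than in control cells, 8.51% were called in either direction for adriamycin against control, and 12.8% for adriamycin against etoposide. Nothing is read from these shares for MIB2, which was selected on this contrast. MIB2 ranked 4 of the 94 genes by fold change for etoposide against control, where the median was 0.027, and ranked 14 for adriamycin against control, where the median was −0.072. The call was lost without control replicate 2, where the log2 fold change was 0.97, and without etoposide replicate 1, where it was 1.02. Each of these fits leaves 1 library in a group, so the loss does not show that the difference came from a single library.

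**Figure D2:**
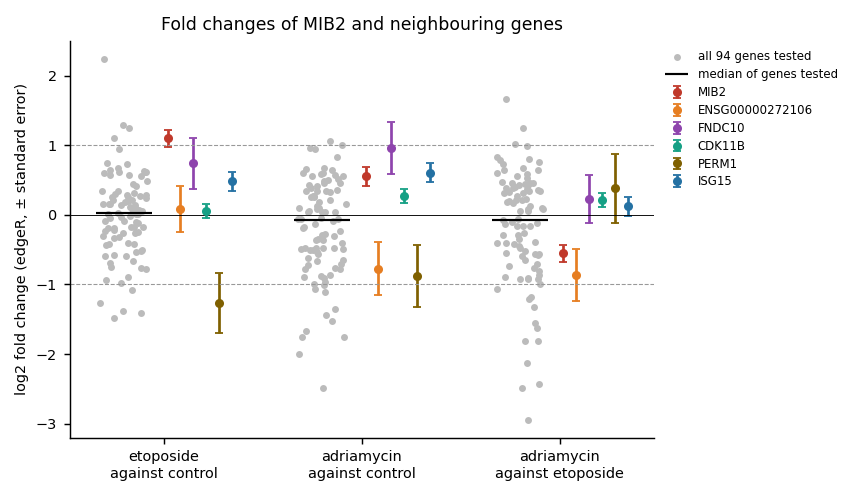
Log2 fold changes (edgeR, vertical axis) in the 3 comparisons for MIB2 and the tested genes beside MIB2 and HES4, with standard errors, next to all 94 genes tested (grey) and their median (black line). Dashed lines mark a change of 1. MIB2 lies at 1.10 for etoposide against control, at 0.55 for adriamycin against control and at −0.55 between the drugs.

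Counts set against another gene of the same library do not depend on the scaling. Relative to CDK11B, the nearest tested gene downstream, which encodes a kinase and has a near-identical copy, CDK11A, MIB2 counts were 34.9% and 29.5% in control cells, 68.3% and 65.6% with etoposide, and 38.9% and 39.8% with adriamycin. Relative to SSU72, a phosphatase gene chosen after its values were seen, with a log2 fold change of −0.32 for etoposide against control, they were 15.3% and 12.3%, 37.0% and 37.5%, and 19.8% in each adriamycin library. Both ratios kept the etoposide libraries highest and the adriamycin libraries in between. Relative to AGRN, however, the adriamycin libraries, at 1.39% and 1.45%, overlapped the control libraries, at 1.43% and 1.21%, while the etoposide libraries stood at 3.99% and 3.24%. AGRN itself differed between the groups, with a log2 fold change of 0.46 for adriamycin against control and −0.33 for etoposide against control (edgeR adjusted p = 1.04e-05 and 0.00212), so the place of adriamycin between the other groups depends on the reference gene.

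The lncRNA gene ENSG00000272106 lies on the opposite strand, overlaps the start of MIB2 by 342 bases and shares 180 of the 8723 exon bases of MIB2. The strand setting of the counting is not given in the sources used here, so reads from the shared bases cannot be told apart. It had 47 and 53 counts in control cells, 85 and 42 with etoposide, and 21 and 25 with adriamycin. Its log2 fold change was 0.090 for etoposide against control (edgeR adjusted p = 0.849) and −0.77 for adriamycin against control (edgeR adjusted p = 0.0859). The difference between its fold change and that of MIB2 was not tested.

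Of the nearest tested genes on each side, neither passed the call. FNDC10, upstream, went from 26.5 ± 8.32 normalized counts in control cells to 44.8 ± 8.37 with etoposide and 53.5 ± 5.32 with adriamycin (SD, n = 2 in each group), and its control libraries lay below all others. The log2 fold changes of FNDC10 were 0.74 and 0.97 (edgeR adjusted p = 0.107 and 0.0268). CDK11B differed less, by 0.055 with etoposide and 0.28 with adriamycin (edgeR adjusted p = 0.746 and 0.0183). Among the other genes tested, those whose log2 CPM followed MIB2 most closely over the 6 libraries were TNFRSF14, a receptor of the TNF receptor family (Pearson r = 0.91), ENSG00000215014 (r = 0.86) and SLC35E2B, a gene of the nucleotide-sugar transporter family further downstream (r = 0.81). These correlations describe 6 libraries in 3 groups.

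HES4 (ENSG00000188290), a repressor of the HES family, spans bases 998962 to 1000172 of chromosome 1 (minus strand). Both control libraries held 0 counts of HES4, the etoposide libraries held 4 and 1, and the adriamycin libraries 1 and 0. A count of 0 allows up to 3 counts, for counting error alone, which is 2.43 and 3.44 normalized counts in the control libraries. Etoposide replicate 1, the highest for HES4 at 2.71 normalized counts, lay between these, so no library stood clear of both controls. HES4 did not pass the filter on low counts and no fold change is given. With no filter, edgeR's adjusted p over 174 genes was 0.372 for etoposide against control, 0.712 for adriamycin against control and 0.677 for adriamycin against etoposide. A difference in HES4 was not detectable at these counts.

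HES5, another Notch target of the shared region, was no higher, with 0 counts in 5 libraries and 2 counts in etoposide replicate 2. The nearest tested genes on both sides of HES4, ISG15 and PERM1, were detected in each library. Between PERM1 and HES4 lies ENSG00000272512, which was not tested, with 0 to 4 counts. ISG15, an interferon-induced ubiquitin-like protein gene that begins at base 1001138, had 264 and 206 counts in control cells, 454 and 305 with etoposide, and 333 and 229 with adriamycin. ISG15 was higher with each drug, by 0.48 with etoposide (standard error 0.13, edgeR adjusted p = 0.00244) and by 0.60 with adriamycin (standard error 0.14, edgeR adjusted p = 0.000133), below a change of 1. PERM1, a regulator of muscle metabolism genes, had 12 to 41 counts, and its log2 fold change with etoposide was −1.26 (edgeR adjusted p = 0.0169). In TPM, a count scaled for exon length and library size so that genes can be compared, HES4 stood at 0.57 and 0.22 in the etoposide libraries, ISG15 at 84.0 and 86.8, and PERM1 at 0.95 and 1.04.

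For the members outside the shared region only the etoposide libraries were analysed. Their values are levels with etoposide and say nothing of a change. Among the receptors, which carry the signal to the nucleus, NOTCH2 had 4077 and 3546 counts, NOTCH1 had 2050 and 1656, and NOTCH3 had 2044 and 1495. NOTCH2 had the highest mean, at 39.1 and 52.2 TPM, against 34.9 and 39.2 TPM for NOTCH3 and 26.2 and 32.6 TPM for NOTCH1. NOTCH4, an endothelial receptor and not a member, stood at 1.98 ± 0.170 TPM (SD, n = 2). NOTCH2 has partial copies, and those in the list had 0 to 12 counts per library, with the most in NOTCH2NLC, so reads that the counting could not place may be missing from NOTCH2.

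JAG1, a Jagged ligand, had 1125 and 755 counts, or 19.7 ± 0.433 TPM (SD, n = 2). It was the highest of the 5 ligands, above DLL3 at 7.84 and 8.19 TPM and JAG2 at 6.65 and 6.86 TPM. DLL4 was the lowest, with 14 and 11 counts. Mind bomb 1, the MIB1 product, is also a ubiquitin ligase for Notch ligands. MIB1 had 1428 and 1123 counts, or 17.3 and 20.9 TPM, and MIB2 stood at 14.4 and 12.9 TPM in the same libraries. NEURL1B, of the Neuralized family, was above both Mind bomb genes at 45.6 and 50.7 TPM, while NEURL1 had 11 and 9 counts.

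The targets of the list were taken by name, as the HES and HEY families and NRARP. Whether each of them responds to Notch was not tested. They ranged from near 0 to the level of the receptors. HES1, the repressor most often read as a Notch target, had 633 and 364 counts, or 49.3 and 43.6 TPM, the highest of the 10 targets in the list. HEY1, of the HEY family, had 104 and 90 counts, or 3.04 and 4.04 TPM. HES6, which can counteract HES1, was at 26.8 and 23.6 TPM, and NRARP, a target that dampens the signal, at 15.2 and 16.9 TPM. The other targets, HEYL, HES7, HES4, HES5, HEY2 and HES2, lay below 3 TPM in each library, and 5 of the 10 targets reached 10 counts in each library. Of the 3 genes whose GTGGGAA stretches are shown above, HES1 was thus expressed and HES4 and HES5 were near 0 in the same libraries.

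Ordered by mean TPM over the exons, the members ran from HES4 (0.397 ± 0.250) through HEY1 (3.54 ± 0.710), MIB2 (13.7 ± 1.00), MIB1 (19.1 ± 2.55), JAG1 (19.7 ± 0.433), NOTCH1 (29.4 ± 4.49), NOTCH3 (37.0 ± 3.06) and NOTCH2 (45.6 ± 9.31) to HES1 (46.5 ± 4.05; SD, n = 2 for each). The libraries overlapped between MIB1 and JAG1, between NOTCH3 and NOTCH2 and between NOTCH2 and HES1, so these neighbours were not separated by their spread. Within each library NOTCH2 was above NOTCH3, whereas the other pairs changed order between the libraries. The order also depends on the gene model. All annotated exons of MIB2 together are 8723 bases, but its Ensembl canonical transcript is 3206 bases. Over the canonical transcripts, a choice made after seeing the data, MIB2 was above MIB1, at 22.4 ± 1.41 against 15.1 ± 2.18 TPM, and NOTCH2 was above HES1, at 40.3 ± 8.64 against 36.6 ± 2.81 TPM (SD, n = 2 for each).

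**Figure D3:**
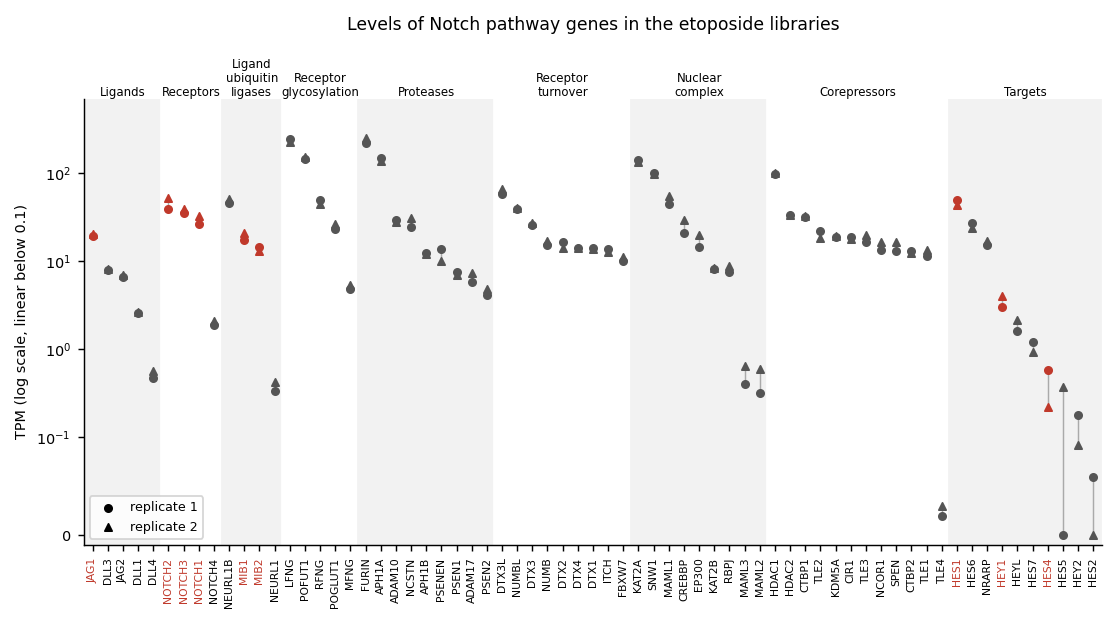
TPM over the union of exons (vertical axis, logarithmic above 0.1 and linear below) of Notch pathway genes in the 2 etoposide libraries, sorted by role. Circles are replicate 1 and triangles replicate 2, and the 9 members are red. LFNG and FURIN have the highest means, 236 and 233 TPM, and the targets spread from HES1 down to 0.

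Over the whole list of 68 genes, 61 reached 10 counts in each etoposide library, and none was at 0 in both. The median of all 68 was 15.6 TPM. It was 18.2 TPM for the 61 genes, beside 12.3 TPM for the 17207 genes of the full list that reached the same minimum. Those 17207 include genes that do not code for protein, and a median over the 13715 protein-coding ones was not computed. Among the genes of receptor glycosylation, LFNG (Lunatic fringe, which alters the ligand preference of the receptor) was at 236 ± 13.1 TPM and POFUT1, which adds fucose to it, at 147 ± 4.51 TPM, while MFNG was at 5.02 ± 0.371 TPM. Among the proteases, FURIN, which cuts the receptor during its maturation, was at 233 ± 21.6 TPM and APH1A, a subunit of γ-secretase, at 142 ± 8.85 TPM. In the nuclear complex, the acetyltransferase gene KAT2A was highest at 135 ± 5.16 TPM and SNW1, a splicing factor and coregulator, followed at 98.2 ± 2.13 TPM. RBPJ itself was at 8.14 ± 0.857 TPM, and MAML1 was the Mastermind gene in use, at 49.5 ± 6.45 TPM against 0.452 ± 0.193 for MAML2 and 0.524 ± 0.177 for MAML3. HDAC1 (99.3 ± 1.79 TPM), a histone deacetylase gene, led the corepressors, and DTX3L (61.4 ± 6.24 TPM) and NUMBL (39.7 ± 1.18 TPM) the genes of receptor turnover (SD, n = 2 for each).

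The etoposide libraries did not differ evenly. The CPM of NOTCH2 was 190 in replicate 1 and 249 in replicate 2, a log2 ratio of −0.39. NOTCH1 (−0.28), MIB1 (−0.24), HEY1 (−0.38) and NOTCH3 (−0.14) were also lower in replicate 1, JAG1 (−0.015) was almost level, and MIB2 (0.18) and HES1 (0.21) were higher. All 4 receptors were lower in replicate 1, as were 40 of the 61 list genes that reached 10 counts in each (65.6%, beside 56.6% of all 17207 genes), with a median log2 ratio of −0.050 beside −0.035 over all of those genes. Across these 61 genes, which share the same 2 libraries and are not independent, the ratio ran against gene span, at r = −0.47 (Pearson, log10 span) and rho = −0.38 (Spearman). Across 17148 annotated genes of the whole list the same values were −0.033 and −0.12, and across 13715 protein-coding genes −0.17 and −0.24. The share lower in replicate 1 was not computed for protein-coding genes alone. The part of span in the differences between groups was not tested.

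**Figure D4:**
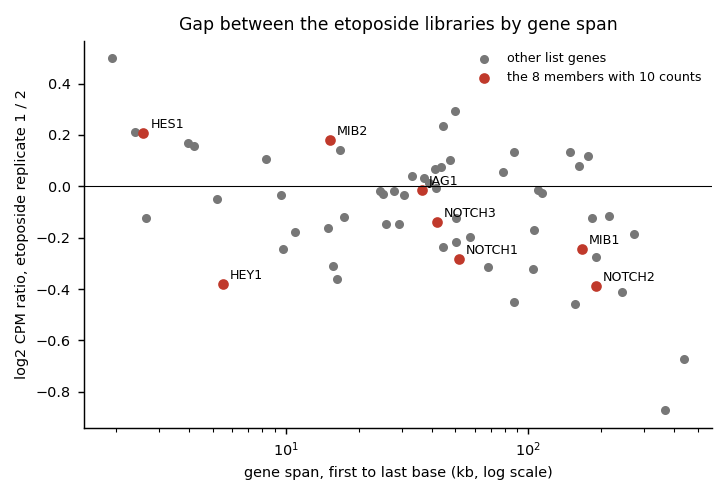
Log2 ratio of CPM between etoposide replicates 1 and 2 (vertical axis) against gene span in kb (horizontal axis, logarithmic) for the 61 Notch pathway genes with at least 10 counts in both libraries. The 8 members among them are red and named: NOTCH2 and MIB1, with long spans, are lower in replicate 1, and HES1 and MIB2 are higher. HEY1, with a span of only 5.49 kb, is also lower, at −0.38, close to NOTCH2 at −0.39. NOTCH1 and NOTCH3 are lower as well, and JAG1 is almost level.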

How the data were processed

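RNA-Seq of U2OS cells in 3 groups of 2 libraries was analysed, with groups and replicate numbers from the sample titles. Per the submitters' notes, the authors used HISAT2 2.1.0 for alignment (GRCh38) and featureCounts of Subread 2.0.0 for counting, and deposited raw counts per Ensembl gene without normalization. The incomplete last line of each control and adriamycin library was left out. The quasi-likelihood test of edgeR 4.0.16, run in R 4.3.3, was fitted once over the 6 libraries with TMM scaling, the default filter on low counts and Benjamini-Hochberg adjustment over 94 genes. A gene was called where the adjusted p was below 0.01 and the log2 fold change beyond 1. The procedure was tested on simulated data. CPM and TPM were computed from the etoposide counts, TPM over the union of exons in GENCODE 44. Promoter windows came from RefSeq. Alternatives were other scalings, filters and sample sets, DESeq2 1.42.0, a replicate block and leaving out each library.

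The members and gene lists were chosen with earlier results of these data known. The Notch list held ligands, receptors, ligand ubiquitin ligases, receptor glycosylation, proteases, receptor turnover, nuclear complex, corepressors and targets. Named were the 9 members, list genes of all 6 libraries, the 2 highest list genes of each role by TPM, genes overlapping MIB2 or HES4, the nearest tested gene on each side, and the 3 genes most like MIB2. HES4 was too low for this measure of likeness. An item that the rule names is not reported here. Other genes named were chosen after their values were seen. Replicates differed beyond sampling noise: a binomial test at p under 0.05 separated them for 24.0%, 29.3% and 28.0% of 75 genes in the control, etoposide and adriamycin groups.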

Additional observations from a re-analysis of the deposited data

How the results depend on the processing

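The log2 fold change of MIB2 kept its sign in 15 of 15 alternatives for each comparison. For etoposide against control upper-quartile scaling gave 1.33 and library size alone 1.30, where the median over the genes tested was 0.25 and 0.22 in place of 0.027, and it was 0.97 to 1.26 when 1 library was left out. With the replicate number as a block it was 1.11, and the block changed no call of MIB2. For adriamycin against control these scalings gave 0.75 and 0.33, with the median at 0.12 and −0.29 in place of −0.072, and it was 0.43 to 0.74 with 1 library left out. For adriamycin against etoposide library size alone gave −0.96, with the median at −0.48 in place of −0.069. The calls over all genes tested numbered 5, 8 and 12 in these 3 comparisons, and 0 to 5, 5 to 10 and 3 to 22 under the alternatives. MIB2 was the only Notch list gene tested and was selected on its call, so the count of list genes called restates that call. The count was 1 for etoposide against control, where 2.13% of all 94 genes tested were called higher. How the call fares with 1 library left out is given above. It stayed at 0 in the other comparisons under the alternatives run. The cause of these changes was not tested. The median level of the Notch list with etoposide was 35.3 CPM. It was 15.6 on the TPM scale over exons, 16.3 over canonical transcripts (added after seeing the data), 46.9 CPM for genes with at least 10 counts in both libraries, which leaves out low genes by construction, and 35.0 to 37.1 CPM in a single library. Replicate numbers did not pair the libraries: deviations over 75 genes correlated at −0.070, 0.036 and −0.010 between the groups. HES4 gave a test only without a filter. At 0 to 4 counts per library, differences in HES4 and HES5 were not detectable.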

Other observations

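The letters CACGTG, an E-box that MYC and related factors bind, were found in 7.26% of all 35116 promoter windows. Counted by gene, 4 of the 58 Notch list genes with a window held them: ADAM10, CTBP1, POGLUT1 and TLE3. RBPJ was the list gene whose own window held GTGGGAA on both strands together with 3 matches to CACGCG. Of the 8 list genes with GTGGGAA, the mean levels with etoposide ran from 0.135 TPM for HEY2 to 46.5 TPM for HES1, with RBPJ at 8.14 TPM.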
